A study of Mus musculus with 29 samples.

Results

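Macrophages and dendritic cells reach a lung tumour from the resident alveolar pool and from blood monocytes, and in a bulk tumour array they are seen only through the genes they express. The genes described here are 43 such genes, listed under 45 names of which 2 are older symbols of a listed gene. For each gene the probe set with the highest mean signal over all 29 arrays was used. A probe set annotated to the gene alone was found for 42 genes, and 40 of these passed a filter on low signal and were tested among 14602 genes in all. Cd163 (a haemoglobin scavenger receptor) and Itgam (an integrin of myeloid cells) were below the filter, and Spp1 (osteopontin) was not analysed here. Marco, Chil3, Fabp5, Mrc1 and Siglecf (listed as Siglec5) were treated as alveolar macrophage genes and the other 35 tested genes as general ones.

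The tumours came from mice of a mixed 129/Bl6 background in which a reverse tetracycline transactivator (CCSP-rtTA) is driven by the promoter of a secretory protein of airway epithelium. TI-K mice carry CCSP-rtTA and an oncogene transgene that answers to the transactivator, and gave 8 primary adenomas or adenocarcinomas. TI-KM mice carry in addition TRE-Mad2, which overexpresses a spindle checkpoint protein, and gave 14 primary tumours and 6 recurrences. Per its title the study is about lung tumours that return after the oncogene is switched off; age, inducer and times are not given in the sources used here. A single array of normal lung, with CCSP-rtTA and neither TRE transgene, is the control, and all 4 groups share CCSP-rtTA. TI-KM primaries 1 and 2 share a title number and may come from 1 animal; nothing else says whether samples come from separate mice, so p-values measure only the spread between these samples. Each value is a signal, an intensity on a linear scale, for RNA of the whole sample: fewer cells of a type and less RNA per cell cannot be told apart.

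Alveolar macrophages live in the airspace, clear surfactant and debris, and depend on the growth factor GM-CSF and on the lipid-sensing factor Pparg. Monocyte-derived and interstitial macrophages depend on Csf1 acting through Csf1r, and many make the complement protein C1q, which tags debris and immune complexes. Conventional dendritic cells depend on Flt3 and, for the cross-presenting subset, on Irf8 and Batf3.

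Some arrays stood apart. The 18S ribosomal control signal was above 12000 in 10 tumour arrays (TI-KM primaries 1 to 6 and recurrences 1 to 4) and in the normal lung, and between 5939 and 10857 in the 13 remaining tumour arrays and 5 TI-K primaries with title numbers over 6000. The high-18S arrays are all TI-KM, so that set and the Mad2 genotype partly coincide. The labels do not name these sets. The 5 arrays with high title numbers are all TI-K. In a fit with array set as a block they therefore do not enter the differences from TI-K primaries. Those differences then rest on the 3 remaining TI-K primaries, as they also do within the remaining arrays. A further measure, the signal ratio of 3' to 5' control probes as log2, had a median of 1.32 in recurrences against 2.12 in TI-K and 2.09 in TI-KM primaries. Mad2l1 signal spanned 573 to 1478 among TI-K tumours and 492 to 1271 among TI-KM primaries, ranges that overlap, and whether its probe set reads the transgene is not known here.

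Promoter sequence is shown for 5 members, because all 3 C1q genes peaked in the same array (2 are shown), Siglecf and Fcgr3 were called between tumour groups, and Chil3 had the largest change against the normal lung. RefSeq (build GRCm38.p6) gave the 250 bases before the start of transcription, 5' to 3' on the gene's strand, with capitals marking GAGGAA or its reverse complement TTCCTC, the core that the myeloid factor PU.1 is known to bind. C1qb lies at chr4:136886201-136886450 (minus strand), C1qc at chr4:136892915-136893164 (minus), Siglecf at chr7:43351091-43351340 (plus), Fcgr3 at chr1:171059395-171059644 (minus, 1 of 2 starts) and Chil3 at chr3:106167565-106167814 (minus).
C1qb: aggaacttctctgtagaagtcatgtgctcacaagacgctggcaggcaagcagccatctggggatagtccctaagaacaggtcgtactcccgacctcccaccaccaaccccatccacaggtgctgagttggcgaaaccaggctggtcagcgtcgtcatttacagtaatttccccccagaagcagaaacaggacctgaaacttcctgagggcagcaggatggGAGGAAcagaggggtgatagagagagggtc
C1qc: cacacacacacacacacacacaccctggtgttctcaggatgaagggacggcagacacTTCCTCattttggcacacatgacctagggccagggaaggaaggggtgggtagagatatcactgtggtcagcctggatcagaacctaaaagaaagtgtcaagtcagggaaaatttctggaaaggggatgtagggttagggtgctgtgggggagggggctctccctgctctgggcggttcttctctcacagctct
Siglecf: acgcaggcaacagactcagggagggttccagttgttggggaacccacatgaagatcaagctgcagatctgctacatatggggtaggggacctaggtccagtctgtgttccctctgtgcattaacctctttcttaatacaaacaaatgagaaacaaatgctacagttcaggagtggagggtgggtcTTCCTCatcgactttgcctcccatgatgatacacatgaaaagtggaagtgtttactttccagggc
Fcgr3: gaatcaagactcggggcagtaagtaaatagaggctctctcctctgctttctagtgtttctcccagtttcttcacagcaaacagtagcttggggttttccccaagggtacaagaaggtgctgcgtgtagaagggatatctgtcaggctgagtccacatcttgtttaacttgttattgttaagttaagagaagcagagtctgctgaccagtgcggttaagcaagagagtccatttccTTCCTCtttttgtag
Chil3: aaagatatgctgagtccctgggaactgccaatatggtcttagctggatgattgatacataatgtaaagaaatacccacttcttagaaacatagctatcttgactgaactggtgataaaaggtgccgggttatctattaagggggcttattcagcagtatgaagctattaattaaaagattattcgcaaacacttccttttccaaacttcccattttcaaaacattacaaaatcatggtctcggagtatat
The letters occurred on either strand in 4 of these and not in the window of Chil3. Over all members with an entry, 23 of 41 windows from 32 genes held them (56.1%), against 7639 of 32851 windows in the genome (23.3%); 11 members had no entry. A match is a run of letters and shows no binding.

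Many of the members, but not all, had more signal in the tumours than in the 1 normal lung. With all 4 groups in 1 limma model and a gene called at a Benjamini-Hochberg adjusted p below 0.05, 16 of 40 members were higher in TI-K primaries than in the normal lung, against 6.70% of all genes, and 1 was lower, against 6.79%; 13.5% of all genes were called either way. In TI-KM primaries 14 members were higher, against 7.69% of all genes, and 1 lower, against 7.16%, with 14.9% called either way. In recurrences 12 were higher, against 6.40%, and 1 lower, against 6.06%, with 12.5% called either way. The 3 comparisons share the single normal array, whose spread was taken from the tumours, so they are not independent of each other. All 8 TI-K primaries lay above the normal lung for 24 members, where 26.2% of all genes did so, and below it for 7, against 27.6%. For TI-KM primaries these counts were 20 and 3, against 19.8% and 16.9% of all genes, and for recurrences 17 and 4, against 25.4% and 20.1%. Within the remaining arrays alone, 23, 23 and 18 members were called against the normal lung for TI-K and TI-KM primaries and for recurrences in that order, where 23.8%, 26.2% and 20.1% of all genes were. Of these 2, 4 and 2 were lower, where 1620, 1776 and 1317 of 14602 genes were. They were Pparg in all 3, Lyz1 (-0.61 and -0.56) in both kinds of primary, Lpl in TI-KM primaries (-1.51) and recurrences (-1.32), and Csf1 in TI-KM primaries (-1.80). Probe sets of Lyz1 and Csf1 disagree over all arrays. In TI-KM primaries another one of Lyz1 changed by 1.31 and another one of Csf1 by 0.22, while the rest of both genes were lower. The 18S signal of the normal lung, 12569, was above that of all remaining arrays, so the fits within the remaining arrays cross the 18S split. Within the high-18S arrays 7 and 8 were called in TI-KM primaries and recurrences, where 15.2% and 11.8% of all genes were. Of these 6 and 7 were higher, where 1366 and 1016 of 14602 genes were.

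Chil3 (the chitinase-like lectin Ym1, abundant in alveolar macrophages) had the largest change. Its signal was 506 in the normal lung. It was 11967 at the lowest, 21700 at the median and 33132 at the highest in TI-K primaries, 2533, 20080 and 28204 in TI-KM primaries, and 2525, 16319 and 25755 in recurrences. Every tumour lay above the normal lung, and the log2 change was 5.38 ± 0.82 (SE) in TI-K primaries, 5.04 ± 0.80 in TI-KM primaries and 4.64 ± 0.83 in recurrences.

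Siglecf (a sialic acid-binding lectin of alveolar macrophages and eosinophils) was at 30.5 in the normal lung and at 102 to 3438 over the tumours. It rose by 5.14 ± 1.09 (log2 ± SE) in TI-K primaries, 4.27 ± 1.06 in TI-KM primaries and 3.31 ± 1.11 in recurrences, the last with an adjusted p of 0.047 in limma that held in 10 of 28 fits leaving out 1 array; it was lost without any 1 of recurrences 2, 4, 5 and 6, TI-K primaries 1, 2, 4, 5 and 8, or primaries 2, 5, 6, 8, 9, 10, 12, 13 and 14 of the TI-KM group. Marco (a scavenger receptor for particles and bacteria) was at 4.97 in the normal lung, under the offset of 20 that was added before the log2. It ranged from 6.1 to 2704 over the tumours and was not called in any of these comparisons. Its log2 change of 3.39 in TI-K primaries had an SE of 1.99, because tumours differed from each other so widely. Mrc1 (the mannose receptor) was at 1156 in the normal lung and 4541 at the TI-K median, with a change of 2.08 ± 0.82 and an adjusted p of 0.0919. Fabp5 (a fatty acid carrier of lipid-laden macrophages that epithelium also makes) was at 26972 in the normal lung and 22357, 19136 and 18925 at the medians of the 3 tumour groups in the same order.

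Among scavenger and pattern receptors, 3 of 4 tested rose in both kinds of primary and 2 in recurrences. Cd68 (a lysosomal glycoprotein used to stain macrophages) was at 258 in the normal lung and ranged from 529 to 4824 in the tumours, with changes of 3.25 ± 0.66 in TI-K and 2.55 ± 0.65 in TI-KM primaries. Clec7a (dectin-1, a receptor for fungal beta-glucan) was at 761 in the normal lung and at medians of 8043, 6925 and 5935 in the 3 tumour groups. It rose by 3.39 ± 0.84 in TI-K and 2.99 ± 0.82 in TI-KM primaries, while its change of 2.48 in recurrences had an adjusted p of 0.054. Cd14 (a co-receptor for endotoxin) was at 672 in the normal lung and at medians of 4196, 4834 and 5697, and rose by 2.58 ± 0.58, 2.78 ± 0.57 and 3.08 ± 0.59. Msr1 (scavenger receptor A) was at 332 in the normal lung and 493 at the TI-K median and was not called.

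Of the Fc receptors and ITAM adaptors, 3 of 5 rose in TI-K primaries: Fcgr1 by 2.70, Tyrobp by 2.66 and Fcgr3 by 2.49. Fcgr1, the high-affinity receptor for IgG, was the only one of these called in TI-KM primaries and recurrences, and its second probe set changed by 0.02 in TI-K primaries, so its 2 probe sets disagree. Of 9 lysosomal, protease and lysozyme genes, 5 rose in each kind of primary and 4 in recurrences. Atp6v0d2, a proton pump subunit of macrophages and osteoclasts, was at 148 in the normal lung, at medians of 3201, 3851 and 2451 in the 3 tumour groups, and at 604 to 9166 over all tumours. It rose by 4.35 ± 0.84 in TI-K primaries. Mmp12 (macrophage elastase) was at 137 in the normal lung, at medians of 1214, 1205 and 1012 in the 3 tumour groups, and at 164 to 6919 over all tumours. It rose by 3.15 ± 1.01 in TI-K and 3.03 ± 0.99 in TI-KM primaries; its change of 2.48 in recurrences was not called, except without recurrence 3. Lyz2, the lysozyme of macrophages and also of alveolar type II cells, rose by 1.23, 1.06 and 0.95 in the 3 groups, and Ctss, a protease of antigen presentation, by 1.88, 1.77 and 1.59.

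Some roles had few or no calls. C1qa, C1qb and C1qc had changes of 0.34, 0.36 and 0.42 in TI-K primaries, 0.20, 0.93 and 0.51 in TI-KM primaries and 0.68, 1.14 and 0.93 in recurrences. They were called in no comparison with the normal lung. In simulated data only 5, 8 and 1 of 100 2-fold changes were recovered against it for these groups, so a gene not called may have changed. None of the 4 growth factor and receptor genes (Csf1, Csf1r, Csf2ra and Flt3) was called in the model of all arrays. In TI-K primaries they changed by -1.22, -0.39, 1.52 and -1.05 in that order. Csf1r, the receptor that macrophages need for survival, had a signal of 10141 in the normal lung and 7787 at the TI-K median. Other probe sets of Csf1r changed by 0.67 and 0.02 in TI-K primaries, so its probe sets disagree in direction here. Batf3 rose by 2.28 in TI-K primaries, 2.06 in TI-KM primaries and 2.26 in recurrences. The other dendritic cell genes, Irf8 and Cd209a, were not called. Irf8 changed by 0.51, -0.04 and -0.01 in the same order, and its other probe set by 0.68, 0.94 and 1.22.

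Lipid genes split. Gpnmb, a glycoprotein of lipid-handling macrophages, was at 186 in the normal lung and at medians of 1261, 1400 and 1758 in the 3 tumour groups, and rose by 2.82 ± 0.76, 2.76 ± 0.74 and 3.22 ± 0.78. Pparg was the 1 member that fell in the model of all arrays. Its signal was 3360 in the normal lung, at medians of 548, 385 and 424 in the 3 tumour groups, and between 145 and 1241 over all tumours. Its log2 changes were -2.66 ± 0.60, -3.06 ± 0.59 and -3.04 ± 0.61. Lpl (lipoprotein lipase) was at 27887 in the normal lung, above all 28 tumours, and was not called in the model of all arrays. Fat cells also express Pparg and Lpl, and the 2 fat markers measured summed to 44304 in the normal lung against 1246 to 9987 in the tumours. The 12 epithelial markers summed to 48663 in the normal lung and 77071 to 179168 in the tumours, and the 10 pan-leukocyte markers to 10607 and 8325 to 79161; none of the markers measured was at 0, and the part of these cells in the changes was not tested.

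**Figure D1:**
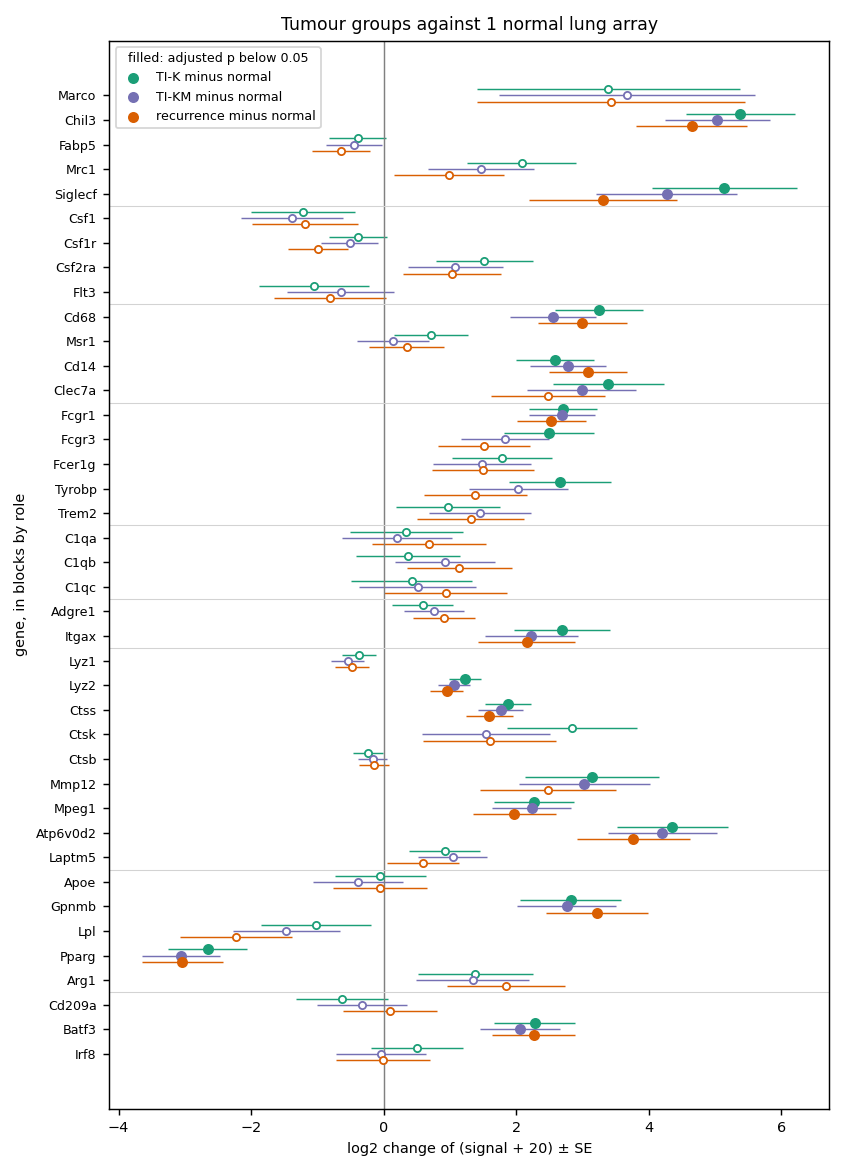
Log2 change of signal plus 20 (horizontal axis, ± SE) of the 40 members, grouped by role on the vertical axis, in the 3 tumour groups (TI-K and TI-KM primaries, recurrences) against 1 normal lung array; filled points have an adjusted p below 0.05. Chil3, Siglecf and Atp6v0d2 lie farthest to the right and Pparg is the filled point left of 0.

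Between tumour groups few members passed the test. Comparing TI-KM with TI-K primaries, which asks what Mad2 adds to the oncogene, 1 of 40 members was called, Ctsk, which was lower; 8.01% of all genes were called, 5.50% higher and 2.51% lower. Comparing recurrences with TI-KM primaries, 0 members were called in limma, and 1 had an unadjusted p below 0.05; 0.260% of all genes were called, 0.0411% higher and 0.219% lower. Comparing recurrences with TI-K primaries, 4 members were lower and 0 higher, which is 10% of the members where 18.9% of all genes were called, 12.2% higher and 6.73% lower. For TI-KM against TI-K primaries the share lower, 1 of 40 or 2.5%, was close to that of all genes. In the last comparison it was 10% against 6.73% of all genes, and whether these shares differ was not tested. The count of members called there ranged from 0 to 8 when 1 array was left out. The median member change was -0.28 in that last comparison, against 0.11 over all genes, and 13 of 40 members were above 0. For no member were 2 tumour groups separate without overlap, where over all genes 0.0616% and 0.0137% were wholly higher and lower in TI-KM than in TI-K primaries, 0% and 0.0479% in recurrences than in TI-KM primaries, and 1.60% and 0.945% in recurrences than in TI-K primaries. The comparisons share arrays: a low TI-KM or high TI-K array enters more than 1 of them.

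Siglecf, an alveolar macrophage gene, had the largest change of the members in the comparison of recurrences with TI-K primaries. Siglecf was at 799 at the lowest, 1990 at the median and 3438 at the highest in the 8 TI-K primaries. It was at 102, 1174 and 1949 in the 14 TI-KM primaries and at 108, 609 and 1683 in the 6 recurrences. Recurrences 1 and 3 (108 and 115) and TI-KM primary 4 (102) were the low arrays, while recurrences 4 and 6 (1683 and 1341) lay inside the TI-K range. The difference of recurrences from TI-K primaries was -1.83 ± 0.56 (limma, adjusted p 0.0232). It was -1.44 without recurrence 1 and -1.45 without recurrence 3, with adjusted p values of 0.0748 and 0.0784 from the same model. With array set as a block it was -2.16 ± 0.79, and among the remaining arrays alone -1.60 ± 0.52, with adjusted p values of 0.271 and 0.237 from limma. Eosinophils also make Siglecf. Of 8 listed eosinophil and mast cell markers only 3 were measured, and Cpa3 and Tpsb2 among them are markers of mast cells. The 3 summed to 45.1 to 160 in TI-K primaries and 88.9 to 1552 in recurrences, highest in recurrence 1. This sum cannot tell eosinophils from mast cells, and the part of eosinophils in the Siglecf change was not tested.

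Mrc1 ranged from 3072 over a median of 4541 to 9388 in TI-K primaries, from 678 over 3697 to 5649 in TI-KM primaries, and from 462 over 2826 to 4331 in recurrences. Its change from TI-K primaries to recurrences was -1.09 ± 0.42, with an adjusted p of 0.0615 in limma. Chil3, with the values given above, had a change of -0.74 ± 0.42 and an adjusted p of 0.203. In both genes recurrence 3 was far below the other 5 recurrences, and without it the Mrc1 change was -0.64.

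Marco varied most and followed no group. It was at 52.7, 143 and 2704 (lowest, median, highest) in TI-K primaries, 6.1, 388 and 1703 in TI-KM primaries, and 12.6, 296 and 2152 in recurrences. Recurrences 2 and 4 were at 2152 and 1952 and recurrences 1 and 3 at 12.6 and 14.5. Recurrences differed from TI-K primaries by 0.03 ± 1.01. Fabp5 varied least of the 5 alveolar genes, at 14523 to 23735 in TI-K primaries, 13959 to 31960 in TI-KM primaries and 6761 to 27499 in recurrences, with a change of -0.25 ± 0.22. As a role, the 5 alveolar genes had a median change of -0.35 from TI-K to TI-KM primaries, -0.39 from there to recurrences and -0.74 from TI-K primaries to recurrences. With array set as a block these medians were -0.88, -0.38 and -1.30. Within the remaining arrays they were -0.99, 0.12 and -0.87, with 4 of 5 genes above 0 between recurrences and TI-KM primaries, where the high-18S arrays alone gave -0.75 and 0 of 5 above 0. The 35 general genes had medians of -0.14, 0.02 and -0.28, and 3 of them were called in the last comparison against 1 of 5 alveolar genes; whether the roles differ was not tested.

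Ear3, an eosinophil-associated ribonuclease whose family alveolar macrophages also express, is the 1 Ear gene of 11 with a probe set to itself that passed the filter. It was at 482 in the normal lung, and at medians of 22908 in TI-K primaries, 15921 in TI-KM primaries and 3724 in recurrences. Against TI-K primaries recurrences were at -2.19 ± 0.59 (limma, adjusted p 0.0126). Within TI-KM primaries its median was 3859 in the high-18S arrays and 20177 in the remaining ones, and the 2 remaining recurrences averaged 19689, and its change from TI-K primaries was -0.90 with array set as a block and -0.44 within the remaining arrays, not called in either. Its probe set is of a type that can also read near-identical copies.

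**Figure D2:**
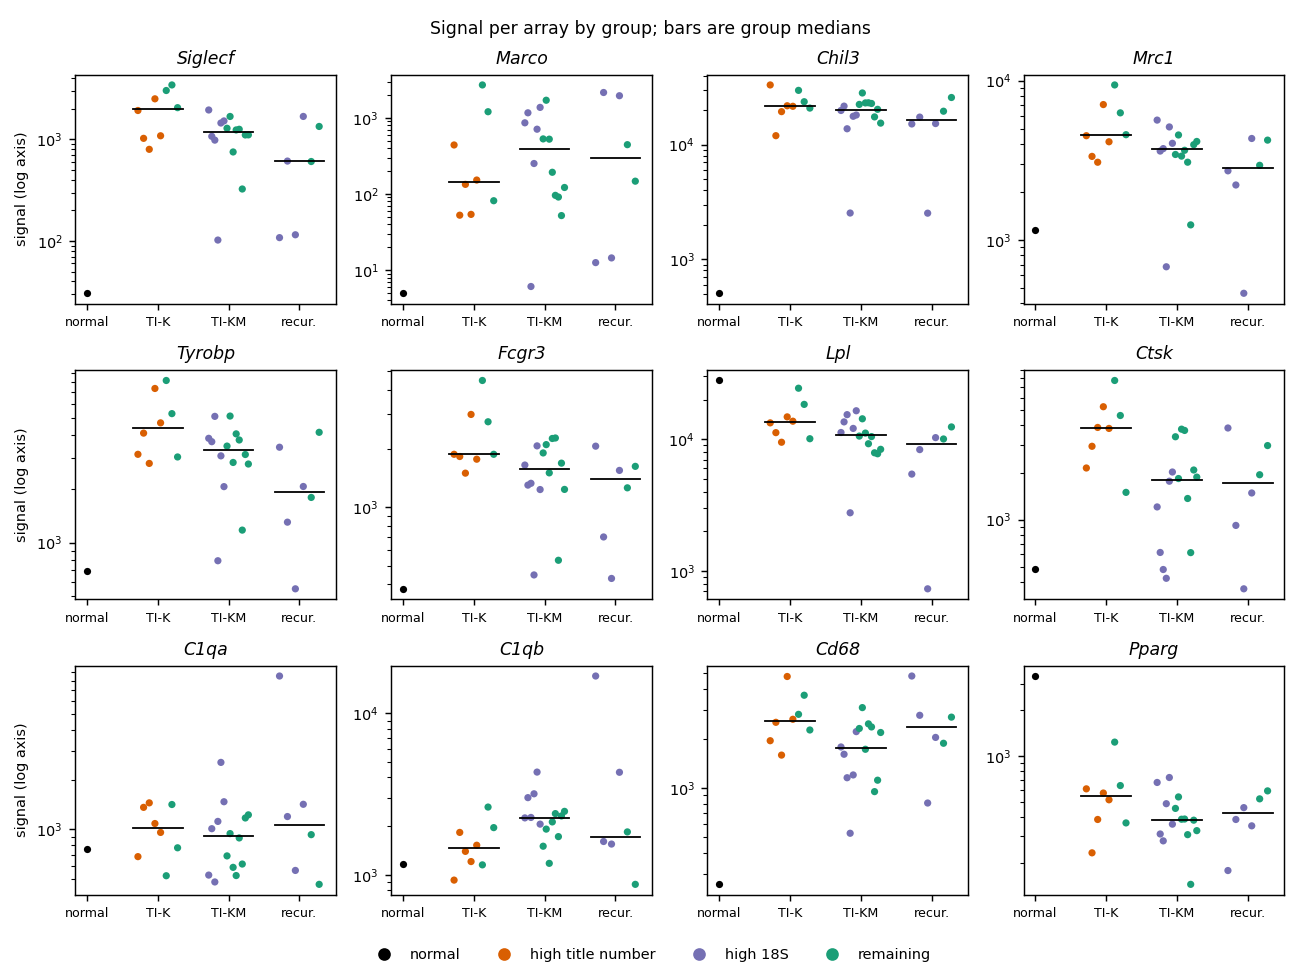
Signal per array (vertical axis, logarithmic) of 12 members in the normal lung and the 3 tumour groups; points are arrays coloured by array set and bars are group medians. Siglecf, Mrc1, Tyrobp and Lpl have a lower median in recurrences than in TI-K primaries with overlapping points, while C1qa and C1qb have 1 recurrence far above the rest.

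Fc receptor and adaptor genes came next. Tyrobp, the ITAM adaptor that passes on signals of Trem2 and other activating receptors, was at 2784, 4411 and 8135 (lowest, median, highest) in TI-K primaries. It was at 791, 3304 and 5136 in TI-KM primaries and at 550, 1930 and 4162 in recurrences. Recurrences 2, 3, 4 and 5 (1303, 550, 2066 and 1793) lay below all TI-K primaries, while recurrences 1 and 6 (3432 and 4162) did not. The change from TI-K primaries to recurrences was -1.28 ± 0.39, with an adjusted p of 0.0236 in limma, and the call was lost without recurrence 2 or recurrence 3 (-1.18 and -0.93). It was -1.20 with array set as a block and -0.89 among the remaining arrays, neither called.

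Fcgr3, a low-affinity receptor for IgG, ranged from 1495 over 1869 to 4478 in TI-K primaries, from 448 over 1573 to 2267 in TI-KM primaries, and from 430 over 1400 to 2058 in recurrences. Recurrences 2 and 3 were again the low arrays (702 and 430). The change from TI-K primaries to recurrences was -0.98 ± 0.35 with an adjusted p of 0.0457 in limma, and the call held in 18 of 28 fits leaving out 1 array. It was lost without any 1 of TI-K primaries 1, 2, 4, 5, 6 and 7, TI-KM primary 12 or recurrences 2, 3 and 4, and the change was -0.71 without recurrence 3. It was -1.07 with array set as a block and -0.99 among the remaining arrays, with adjusted p values of 0.408 and 0.451 in limma. Fcer1g, the shared signalling chain, changed by -0.29, Fcgr1 by -0.17 and Trem2 by 0.33, none of them called; Trem2 was under the offset in many arrays, with a TI-K median of 30.4.

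Lpl ranged from 9485 over 13499 to 24367 in TI-K primaries, from 2767 over 10845 to 16436 in TI-KM primaries, and from 733 over 9190 to 12392 in recurrences. Recurrence 3 was far below the next lowest recurrence, at 5438. The change from TI-K primaries to recurrences was -1.21 ± 0.42 with an adjusted p of 0.0432 in limma, and -0.62 without recurrence 3, not called. The call was also lost without recurrence 1 or 2 or any 1 of TI-K primaries 1, 2, 4, 5, 6 and 7. It was -1.27 with array set as a block and -0.57 among the remaining arrays, neither called. The 2 fat markers summed to 1377 to 7025 in TI-K primaries and 2191 to 7270 in recurrences, and their part in the change was not tested. Among the other lipid, matrix and arginine genes Apoe changed by -0.01, Gpnmb by 0.40, Pparg by -0.38 and Arg1 by 0.46, none called.

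Ctsk, a collagen-degrading lysosomal protease of osteoclasts, macrophages and fibroblasts, was the 1 member called between TI-KM and TI-K primaries. It was at 1495, 3856 and 7748 in TI-K primaries, 422, 1797 and 3787 in TI-KM primaries, and 362, 1709 and 3853 in recurrences. The low TI-KM primaries were 2, 3 and 4 of the high-18S set and 7 of the remaining set, and 1 TI-K primary, at 1495, lay below the TI-KM median. The change was -1.30 ± 0.41, with an adjusted p of 0.048 in limma that held in 11 of 28 fits leaving out 1 array. It was lost without any 1 of TI-K primaries 1 to 7, TI-KM primaries 1 to 7 and 14, or recurrences 4 and 5, with changes of -1.48 to -1.14 over all fits. It was -0.90 with array set as a block and -0.89 among the remaining arrays, with adjusted p values of 0.995 and 0.797 in limma. The 8 fibroblast markers had summed signals of 10512 to 31722 in TI-K primaries, against 7448 to 28590 with Mad2, with Pdgfra lower by 1.10 (log2); their part in the change was not tested.

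Cd68, Msr1 and Fcgr3 had the next smallest p values in that comparison, with changes of -0.70 ± 0.28, -0.57 ± 0.23 and -0.67 ± 0.28 and adjusted p values of 0.0979, 0.106 and 0.124 from limma. Cd68 was at 1588, 2572 and 4792 in TI-K primaries, 529, 1752 and 3095 in TI-KM primaries, and 810, 2371 and 4824 in recurrences. Msr1 was at 317, 493 and 1305 in TI-K primaries, 217, 365 and 752 in TI-KM primaries, and 245, 370 and 836 in recurrences. Cd68 lay below every TI-K primary in TI-KM primaries 3, 4, 5, 7 and 8, and Msr1 in TI-KM primaries 4, 6, 7 and 9, while the other TI-KM primaries overlapped with the TI-K ones.

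Csf1r had the smallest p of the members between recurrences and TI-KM primaries, at a change of -0.48 ± 0.20 and an adjusted p of 0.327 in limma. It ranged from 5837 over 7787 to 11881 in TI-K primaries, from 4201 over 6952 to 11174 in TI-KM primaries, and from 2139 over 6232 to 8120 in recurrences. Recurrences 2 and 3 (3662 and 2139) were the lowest of all tumours, and without recurrence 3 the change was -0.24. A further probe set of Csf1r changed by 0.25, both here and against TI-K primaries, so its probe sets disagree. The other growth factor genes, Csf1, Csf2ra and Flt3, changed by 0.19, -0.05 and -0.16. Against TI-K primaries Csf1r changed by -0.61 ± 0.23 (adjusted p 0.0551 in limma), Clec7a by -0.91, Lyz2 by -0.28 and Cd209a by 0.71, none called. Clec7a was at 3589, 8043 and 15155 (lowest, median, highest) in TI-K primaries, 2643, 6925 and 9726 in TI-KM primaries and 745, 5935 and 11358 in recurrences. Lyz2 was at 19244, 20587 and 31292, then 15255, 19956 and 25032, then 15339, 17573 and 22871 in the same order. Cd209a, the mouse homologue of DC-SIGN on dendritic cells, was at 36.8, 61.2 and 81.9, then 13.9, 81.7 and 170, then 42.6, 102 and 341. In all 3 genes the groups overlapped.

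**Figure D3:**
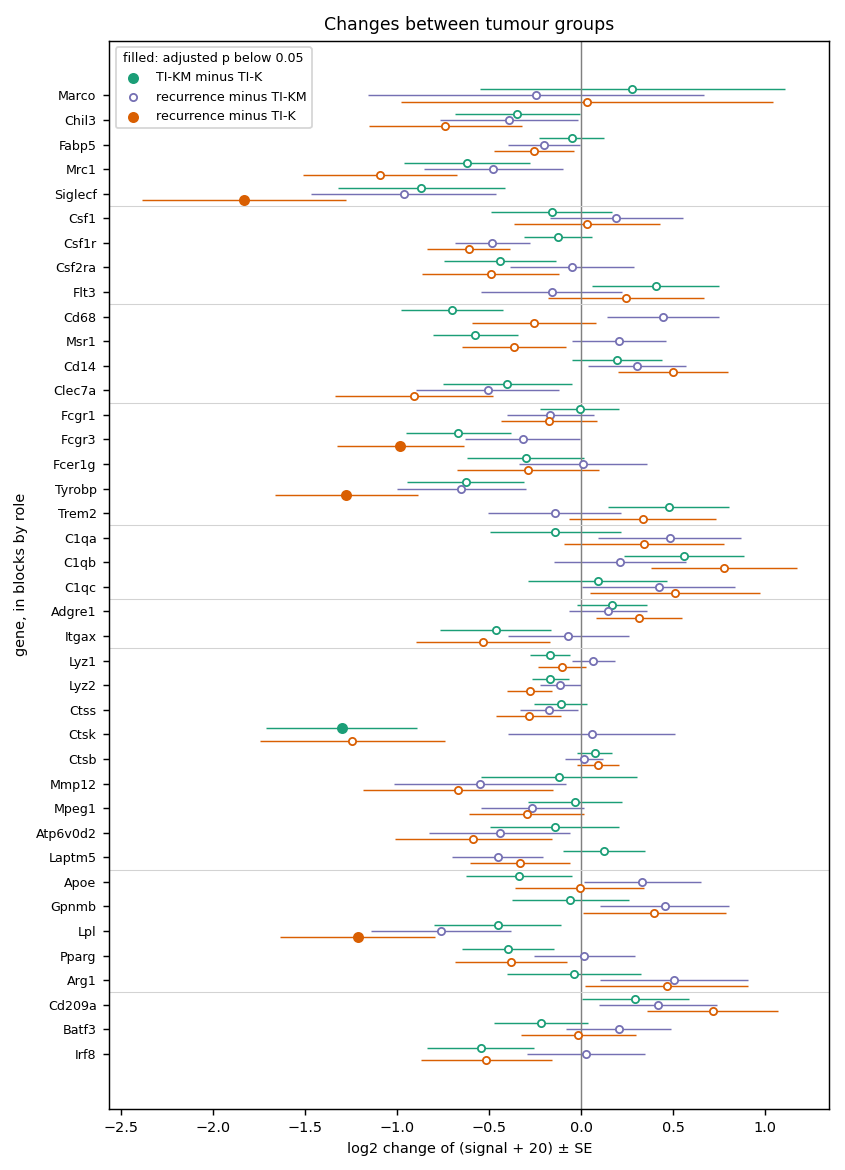
Log2 change of signal plus 20 (horizontal axis, ± SE) of the 40 members by role (vertical axis) between the 3 tumour groups; filled points have an adjusted p below 0.05. The filled points are Ctsk for TI-KM against TI-K primaries and Siglecf, Fcgr3, Tyrobp and Lpl for recurrences against TI-K primaries, and none for recurrences against TI-KM primaries.

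The median SD of the members was above that of all genes. Over the 28 tumours, with the groups pooled, it was 0.75 log2 units, against 0.50 over all genes. Within groups it was 0.53 against 0.35 in TI-K primaries, 0.63 against 0.47 in TI-KM primaries and 0.91 against 0.51 in the 6 recurrences. A few arrays held many of the highest and lowest signals, and their part in the SD was not tested. Recurrence 1 had the highest signal of all tumours for 13 of 40 members (32.5%, against 14.8% of all genes), TI-K primary 6 for 12 (30% against 5.19%), and recurrence 3 had the lowest signal for 16 (40% against 8.36%).

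Recurrence 1 was above the tumour mean in every role except the alveolar one. C1qa, C1qb and C1qc, the 3 chains of C1q, were at 8525, 16967 and 7399 there, while the next highest tumour was at 2551, 4318 and 1410. These genes were singled out after their values were seen. Irf8, a transcription factor of dendritic cells and B cells, was at 7010 against at most 2102 in any other tumour, and Gpnmb, Mmp12 and Cd209a were also highest there at 8635, 6919 and 341. The alveolar genes did not move together there: Siglecf was at 108, Marco at 12.6, Mrc1 at 2714 and Chil3 at 15138, while Fabp5, at 27499, was the second highest of the 28 tumours. The same array had the highest sums of 10 pan-leukocyte markers (79161, others at most 36978), of 7 B and plasma cell markers (73889, others at most 22293) and of 9 T and NK cell markers (6876, others at most 2295), and the lowest sum of epithelial markers (77071). The part of lymphocytes in its values was not tested. Without this array the change of Cd209a from TI-K primaries to recurrences fell from 0.71 to 0.42, and Irf8 and Mmp12 became called as lower, at changes of -1.03 and -1.27. The other probe set of Irf8 disagrees in direction over all arrays, at 0.55 against -0.52.

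Recurrence 3 was low in most roles. Its 5 alveolar genes lay a median of 2.82 log2 units below the tumour mean (a deviation of -2.82), its Fc receptor genes at -1.41 and its lysosomal genes at -1.41. Chil3 was at 2525, Mrc1 at 462, Lpl at 733, Itgax (CD11c) at 322 and Ctsk at 362. Cd14 went the other way, at 18276, the highest of all 29 arrays. The dendritic cell genes lay at a median of 0.68 in recurrence 3, although Irf8 was at its lowest there, at 354. In this array 7 of 40 members lay above the tumour mean. Its pan-leukocyte sum, 8325, was the lowest of the arrays, and its epithelial sum was 161431. TI-KM primaries 4 and 7 had the next lowest alveolar deviations, at -2.29 and -1.38, with pan-leukocyte sums of 12647 and 16255. In TI-K primary 6 the alveolar genes were at 1.46 while C1q was at -0.88.

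**Figure D4:**
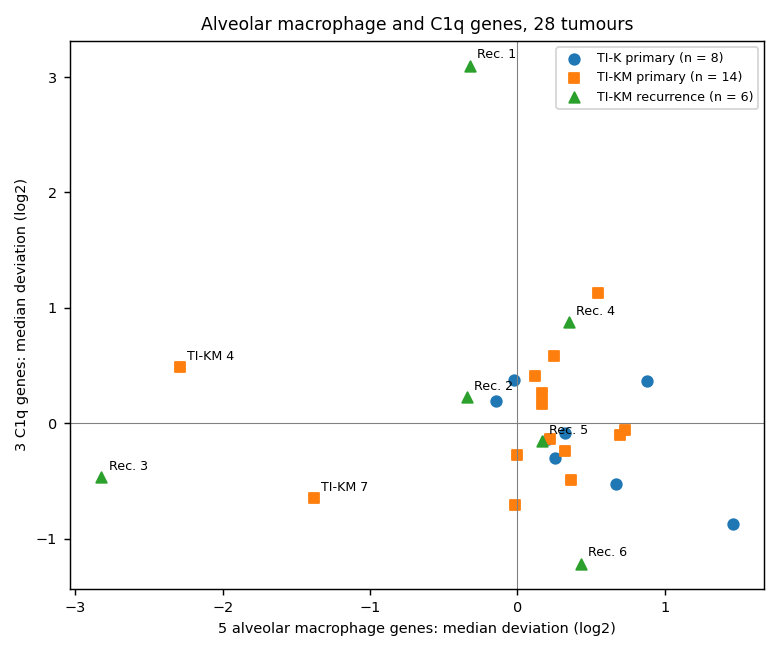
Median deviation from the tumour mean (log2) of the 5 alveolar macrophage genes (horizontal axis) and of the 3 C1q genes (vertical axis) in each of the 28 tumours, with symbols by group. Recurrence 1 lies at 3.10 for C1q and -0.32 for the alveolar genes, and recurrence 3, TI-KM primary 4 and TI-KM primary 7 lie at the far left.

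**Figure D5:**
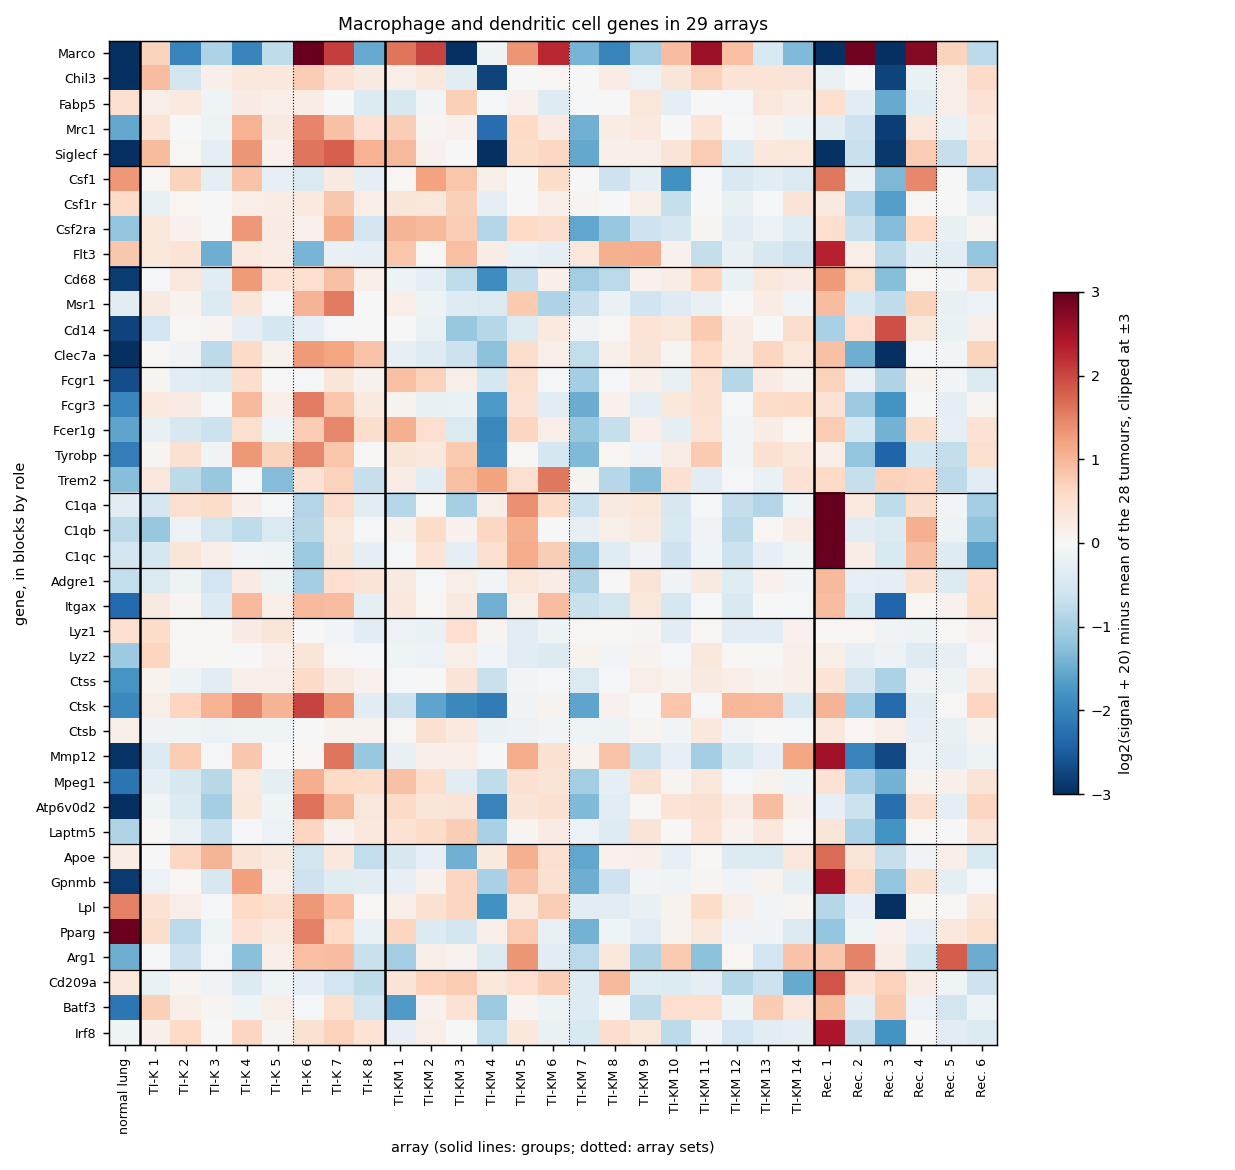
Deviation from the mean of the 28 tumours (log2 of signal plus 20, clipped at 3 in colour) of the 40 members (rows, in blocks by role) in all 29 arrays (columns); solid lines part the groups and dotted lines the array sets. Recurrence 1 is red for C1q and blue for Marco and Siglecf. Recurrence 3 is blue in most rows, with 7 of 40 members above the mean, Cd14 among them.

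Some members differed between array sets as well, a smaller share than of all genes. Within TI-KM primaries, 4 of 40 members were higher and 1 lower in the 6 high-18S arrays than in the 8 remaining ones, where 42.6% of all genes were called, 30.0% higher and 12.6% lower. The higher ones were Csf2ra (the GM-CSF receptor chain, 1.07 ± 0.33), Cd209a (1.0 ± 0.27), Csf1 (0.97 ± 0.36) and Trem2 (0.89 ± 0.34), and Ctsk was lower (-1.15 ± 0.47). The median signal per array was 122 to 170 in these high-18S arrays and 73.8 to 102 in the remaining ones. Cd209a, Csf1 and Trem2 have weak probe sets, with mean signals of 89.6, 206 and 50.7. The part of the array medians in these changes was not tested. The count was 3 in fits that left out any 1 of TI-KM primaries 2, 3, 4, 8, 9, 10 and 11. Within TI-K primaries 0 members were called between the 5 high-numbered and 3 remaining arrays, where 7.74% of all genes were called, 3.14% higher and 4.60% lower, and 6 members had an unadjusted p below 0.05; 1 was called without recurrence 1. For a difference in recurrence effect between array sets, 0 of 40 members were called in limma and 2 had an unadjusted p below 0.05. Of all genes 0.0137% were called, 0.00685% in each direction. The remaining set holds only 2 recurrences, so a member not called may still differ. With array set as a block, 0 members were called in any of the 3 tumour comparisons, against 0% of all genes for TI-KM against TI-K primaries, 0.705% for recurrences against TI-KM primaries and 0.0959% for recurrences against TI-K primaries. The unadjusted counts were then 3, 1 and 10, or 7.5%, 2.5% and 25% of members against 4.84%, 15.0% and 11.1% of all genes. Member medians under the block were -0.34, -0.07 and -0.55. Within the remaining arrays 0 members were called in these comparisons too, against 0%, 0.0822% and 0.130% of all genes, with unadjusted counts of 15, 0 and 5, or 37.5%, 0% and 12.5% of members against 7.03%, 7.84% and 12% of all genes. Within the high-18S arrays 0 were called between recurrences and TI-KM primaries, against 0.00685%.

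The count of 4 members lower in recurrences than in TI-K primaries rested on few arrays. It was 0 without recurrence 3, 1 without recurrence 2, and 2 without any 1 of TI-K primaries 1, 2, 4, 5, 6 and 7. It was 6 without recurrence 1. Without recurrence 6, 7 members were lower and 1, C1qb, was higher.

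Other genes of the same pathways gave a mixed picture between recurrences and TI-K primaries. The calls in this and the next paragraph come from the model without array set. With array set as a block, or within the remaining arrays, 0 of the 21 genes called in this comparison passed the test in limma. These genes come from these lists, the cell markers and Ear3, and 20 of 21 kept their sign in each fit. Both fits rest on the same 3 remaining TI-K primaries, so they are not separate checks. As above, 12.2% of all genes were higher and 6.73% lower in the model without array set. Of 24 measured genes of CSF signalling and myeloid transcription, 1 rose and 4 fell. Bhlhe41, a transcription factor of alveolar macrophages, rose by 1.46 ± 0.33 (0.60 with the block), and Csf2, the gene of GM-CSF, changed by -1.43 on the log2 scale (-1.31 with the block). Csf2 was at a median of 449 in both kinds of primary and 226 in recurrences, with a lowest value of 20.7. Of 18 phagosome and lysosome genes, 1 fell: Lipa (lysosomal acid lipase), with a change of -0.92 (-0.39 with the block). It was also lower in TI-KM than in TI-K primaries, at -0.76, where 0 of 8 called genes of these lists and markers passed with the block.

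Of 19 further dendritic cell genes, 2 rose and 1 fell. Xcr1, a chemokine receptor of cross-presenting dendritic cells, was at a median of 7.90 in TI-K primaries, 35.8 in TI-KM primaries and 72.2 in recurrences, and changed by 1.56 ± 0.36 (0.56 with the block); the low values are near or under the offset. Clec4n (dectin-2) changed by -1.52 (-1.30 with the block). Of 17 further macrophage and monocyte genes 1 rose and 1 fell: Il10, an anti-inflammatory cytokine, by 1.14 (0.22 with the block), and Mertk, a receptor for dying cells, by -1.15 (-0.75 with the block). Il10 and Xcr1 followed the array sets within TI-KM primaries, with medians of 92.9 and 85.0 in the high-18S arrays against 42.0 and 22.4 in the remaining ones. Of the 10 pan-leukocyte markers 0 were called between any tumour groups in limma, and 0 had an unadjusted p below 0.05. Markers of other cells that were higher in recurrences than in TI-K primaries were Pax5 (1.47) and Blk (1.44) of B cells, Cd8a (1.24) of T cells, Tpsb2 (1.07) and Cpa3 (1.35) of mast cells, Ngp (1.76) of neutrophils, Cidea (2.17) of fat and Cdh1 (0.61) of epithelium, while Postn of fibroblasts was lower (-1.18); with the block Cd8a was at -0.24 and none of them was called; their part in the members' changes was not tested.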

How the data were processed

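RNA of 28 tumours and 1 normal lung was labelled by a 2-cycle preparation and hybridized to Affymetrix arrays, 1 per sample. The deposited values are intensities per probe set, made by the authors with MAS5, per the submitters' processing notes, which name no version. A deposited intensity of 45101 probe sets was read per array, of which 34945 named 1 gene in the platform annotation, matched to RefSeq symbols of GRCm38.p6. Probe sets above the 40th percentile of their array in at least 6 arrays were kept, and the one with the highest mean stood for each gene. An offset of 20 was added before log2, which understates changes of weak genes; 20.2% of values were below it. All 4 groups entered 1 limma fit (version 3.58.1, R 4.3.3, with the R package data.table, version 1.17.8) with a variance trend and adjustment over 14602 genes. Precision here is limited by how many arrays each group has. The source labels gave the groups. The name of the oncogene transgene is not reported here.

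The members and lists were chosen with earlier results of these data known, so no pattern shown here is independent support. Every member could be named. Full values were set for the 5 alveolar genes, for up to 10 members with the smallest p in each tumour comparison (called ones first, the 4 smallest where fewer than 4 were called) and for the 6 called members with the largest change each way against the normal lung, and from each other list the 2 called genes with the smallest p. Alternatives were other scalings, offsets, filters, probe set choices, variance models, sample choices, the 3'/5' ratio as a covariate, array set as a block, fits within sets and leaving out each array. The fit was tested on simulated data.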

Additional observations from a re-analysis of the deposited data

Results flagged for a closer look

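Signals far from the rest of their group were looked for in 80 groups of 4 to 10 arrays, each gene in TI-K primaries and in recurrences, and 4 were found, where chance gives about 1 in 20. Chil3 in recurrence 3 was at 2525, with the next recurrence at 15138. Mrc1 in recurrence 3 was at 462, with the next at 2212. Lpl in recurrence 3 was at 733, with the next at 5438. Gpnmb in TI-K primary 4 was at 3528, with the next TI-K primary at 1723.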

How the results depend on the processing

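No paired analysis was possible because the replicate numbers only follow the order of the samples and join no sample of one group to another. With array set as a block, within the remaining arrays, with a common median, without a filter, without a variance trend, with robust variance or with the pair of title number 76 averaged, 0 members were called between TI-KM and TI-K primaries; with the mean of all probe sets, or only the 2 groups, 2 were. Between recurrences and TI-K primaries the count was 0 with the block or within the remaining arrays, 1 with the 3'/5' ratio and 2 with a common median. Against the normal lung, TI-KM primaries gave 7 within the high-18S and 23 within the remaining arrays, and recurrences gave 8 with a common median, 2 with only the 2 groups and 8 within the high-18S arrays. Between high-18S and remaining TI-KM primaries the count was 13 with a common median, 2 with a filter at the 60th percentile, and 3 with an offset of 1, with only _at probe sets or with quantile normalization. Between TI-K array sets it was 1 with a common median or quantile normalization. Shares of all genes are given above for the block and the fits within sets. They are not given here for the other settings, so those counts cannot be read against a background. Leaving out each array in turn gave 0 to 1, 0 to 0 and 0 to 8 members for TI-KM against TI-K primaries, recurrences against TI-KM primaries and recurrences against TI-K primaries. It gave 17 to 19, 15 to 17 and 11 to 15 against the normal lung for the same 3 groups in the order TI-K, TI-KM and recurrences, and 3 to 7, 0 to 1 and 0 to 0 for the 2 set contrasts and the difference of recurrence effects. The sign turned for C1qb between TI-KM and TI-K primaries with the block (-0.050), and within the remaining arrays for recurrences against TI-KM primaries in Clec7a (0.079), Laptm5 (0.10), Lpl (0.19) and Mrc1 (0.12), none called; the cause was not tested. Low signal and the single normal lung limit what can be shown.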

Other observations

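Some genes of the pathways described above were also higher in the tumours than in the 1 normal lung. The chemokine Ccl17, made by dendritic cells, rose by 3.07, 3.91 and 3.25 on the log2 scale in the TI-K, TI-KM and recurrence groups, and the lysosomal protease Ctsh by 3.64, 3.54 and 3.20. Il34, the second ligand of Csf1r, rose by 1.65, 1.95 and 2.12, while Csf1 itself was not called in the model of all arrays. Lgals3 (galectin-3) rose by 2.74, 2.66 and 2.47; epithelial cells also make it. These genes were chosen after their values were seen.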
